A study of Mus musculus with 3 samples.

Results

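The summits described here are places in the genome where the forkhead transcription factor FOXF1 was called bound in a first pool of fetal mouse lungs and not, within 1 kb, in a second pool. They were chosen by position, from the authors' replicate 1 and replicate 2 summit lists: a replicate 1 summit on a nuclear chromosome was kept when no replicate 2 summit lay within 1 kb. That left 44924 of 107378 replicate 1 summits (41.8%, exact 95% interval 41.5 to 42.1%), called replicate 1 only summits below. The other 62454 replicate 1 summits are called partnered. Both chromatin immunoprecipitations used whole lungs of wild-type C57BL/6 embryos at embryonic day 18.5, with 3 lungs pooled per replicate and the same FOXF1 antibody, and the study set both against a 2% input of such lungs. The labels name no treatment. Whole lung holds every cell type of the organ, no expression was measured, and the cells behind a summit are not known.

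FOXF1 is known as a regulator of the lung mesenchyme and of the endothelium of its capillaries, and forkhead factors recognise short sites built around the letters TGTTTA. Chromatin immunoprecipitation sequencing finds the DNA that a factor contacts as pile-ups of reads, and a summit is the base where such a pile-up is highest. The score of a summit is the authors' −log10 significance of its pile-up. It depends on sequencing depth, which the files and labels do not give, so scores were compared within a replicate.

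The sequences that follow show promoters with a replicate 1 only summit. They come from RefSeq windows on GRCm38.p6, the assembly behind mm10, and each stretch of 150 bases is written 5′ to 3′ and ends at or before the annotated start of transcription. The first set holds the 6 protein-coding promoters with the highest such summits among those with the letters TGTTTAC, on either strand, within 25 bp of the summit and before the start. The motif is in capitals. Dnajc6 encodes a clathrin uncoating factor (chr4:101507826-101507975, plus strand), Pde1b a cyclic nucleotide phosphodiesterase (chr15:103506976-103507125, plus strand) and Ltb the cytokine lymphotoxin beta (chr17:35194357-35194506, plus strand). Gm525 is a predicted gene (chr11:89073691-89073840, plus strand), Eda2r encodes an ectodysplasin receptor (chrX:97377210-97377359, minus strand) and Stard10 a lipid transfer protein (chr7:101316836-101316985, plus strand).
Dnajc6: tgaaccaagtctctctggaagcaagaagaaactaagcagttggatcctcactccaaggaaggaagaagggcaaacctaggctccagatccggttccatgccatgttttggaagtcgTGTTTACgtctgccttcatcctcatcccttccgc
Pde1b: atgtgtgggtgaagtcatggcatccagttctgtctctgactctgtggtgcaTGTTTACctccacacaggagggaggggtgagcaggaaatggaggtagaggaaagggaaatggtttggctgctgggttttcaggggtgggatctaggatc
Ltb: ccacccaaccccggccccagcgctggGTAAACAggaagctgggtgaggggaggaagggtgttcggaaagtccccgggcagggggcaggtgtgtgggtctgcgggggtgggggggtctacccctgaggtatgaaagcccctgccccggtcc
Gm525: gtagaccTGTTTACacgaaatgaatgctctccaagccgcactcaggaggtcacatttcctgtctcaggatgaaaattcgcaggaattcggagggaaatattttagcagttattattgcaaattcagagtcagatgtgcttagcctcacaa
Eda2r: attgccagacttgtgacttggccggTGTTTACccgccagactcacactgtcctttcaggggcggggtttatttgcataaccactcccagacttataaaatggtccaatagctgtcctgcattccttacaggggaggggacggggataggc
Stard10: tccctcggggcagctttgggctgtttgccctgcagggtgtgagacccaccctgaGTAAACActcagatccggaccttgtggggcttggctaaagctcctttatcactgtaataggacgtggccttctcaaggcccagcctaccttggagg

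In these 6 promoters the motif centre lay 2 to 20 bp from the summit. The summit of Dnajc6 had a score of 39.4 and lay 36 bp before the start site, with the motif 5 bp away. The summit of Ltb had a score of 23.8, 119 bp before the start site, with the motif 2 bp away. Pde1b had 24.6, Gm525 20.7, Eda2r 19.1 and Stard10 18.1. A match is a description of the letters and shows no contact of FOXF1 with them.

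The 5 highest replicate 1 only summits in promoters had neither the motif nor its core TGTTTA in the window. By score they were those of Ddit3, a transcription factor of the stress response (71.5), Txndc12, an enzyme of protein folding (70.6), Hipk3, a protein kinase (55.8), Enoph1, an enzyme of methionine salvage (49.9), and Gm36470, a long noncoding RNA gene (48.9), followed by Dnajc6. Those of Txndc12 (chr4:108834528-108834677, plus strand) and Hipk3 (chr2:104494490-104494639, minus strand) are printed as a contrast, with capitals marking the bases within 5 bp of the summit that lie before the start site.
Txndc12: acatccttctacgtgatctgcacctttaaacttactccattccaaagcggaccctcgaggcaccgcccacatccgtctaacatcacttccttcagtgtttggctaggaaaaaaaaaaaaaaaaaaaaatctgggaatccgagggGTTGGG
Hipk3: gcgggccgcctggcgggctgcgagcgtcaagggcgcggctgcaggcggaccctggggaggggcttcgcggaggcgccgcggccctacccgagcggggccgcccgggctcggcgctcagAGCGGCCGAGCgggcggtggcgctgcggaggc

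The 300-base windows around these starts differed in base composition. The Hipk3 window had a GC content of 76% with 42 CpG dinucleotides, while the windows of Pde1b and Gm525 had 44% and 41.3% with 1 and 5 CpG dinucleotides. The Txndc12 window had 49.7%, and its summit lay 1 bp before the start site.

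Replicate 1 only summits were mostly low in their own list. Their median score was 10.2, with the central 50% between 7.20 and 14.8, against a median of 38.5 for partnered summits, with the central 50% between 22.2 and 67.2. Only 110 of them (0.245%) reached a score of 40, against 30358 partnered summits (48.6%). Both lists entered the choice of members, so these scores are a description and no test was made of them. The values were also coarse: the 44924 summits held 829 distinct scores, and the 10 commonest, between 6.10 and 11.4, accounted for 34.8% of them.

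**Figure D1:**
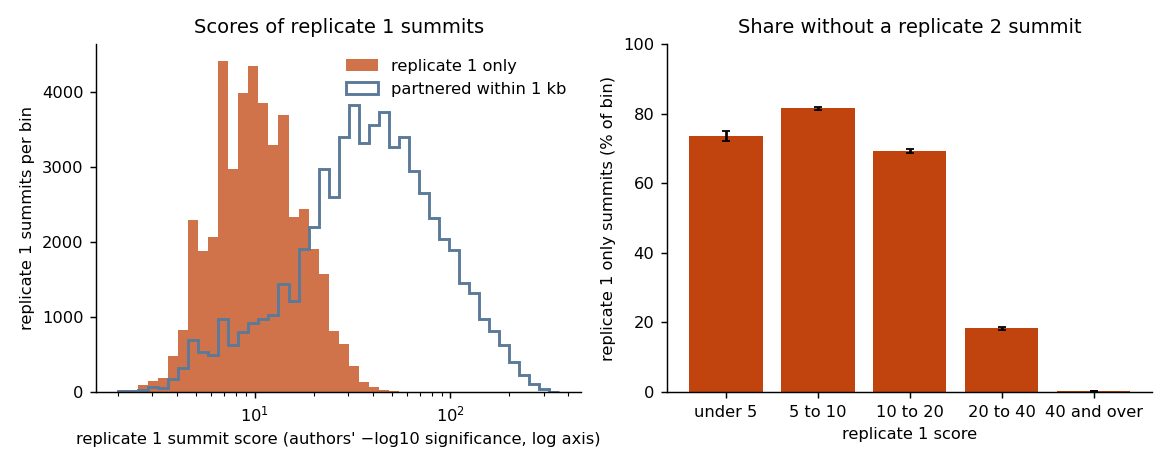
Left, number of replicate 1 summits per score bin (log axis, the authors' −log10 significance) for replicate 1 only summits (filled) and partnered summits (outline). Right, replicate 1 only summits as a percentage of all replicate 1 summits in 5 score ranges, with exact 95% intervals: the share is 81.5% from 5 to 10 and 0.361% at 40 and over.

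The share of replicate 1 summits without a replicate 2 summit was 73.7% at scores under 5, 81.5% from 5 to 10, 69.2% from 10 to 20, 18.3% from 20 to 40 and 0.361% at 40 and over. Members have no replicate 2 value, and replicate 2 scores can be given for partnered summits alone. Where a replicate 1 summit of score 5 to 10 had a replicate 2 summit within 100 bp, that replicate 2 summit had a median score of 6.54, and 88.5% of these replicate 2 summits were under 10. The 10th percentile of the whole replicate 2 list was 6.63. At replicate 1 scores of 10 to 20 the paired replicate 2 median was 7.78, and at 40 and over it was 33.1. Replicate 2 was the shorter list, with 61172 summits, and only 1517 of them (2.48%) lacked a replicate 1 summit within 1 kb.

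The edge of the rule was not marked by a step in score. The 497 members up to 50 bp beyond the limit of 1 kb had a median of 8.78 (2.43 to 105.5), and the 468 summits in the last 50 bp inside it, which the rule left out, had a median of 8.34 (2.41 to 99.7).

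The highest replicate 1 only summits lay next to replicate 2 summits, just beyond the limit. Of the 110 with a score of at least 40, 59 lay within 2 kb of a replicate 2 summit, and for 44 the nearest replicate 2 summit itself had no replicate 1 summit within 1 kb. Of the 41 with a score of at least 60, 39 lay within 2 kb of a replicate 2 summit, against 15.9% of those under 60. For 33 of the 41, the nearest replicate 2 summit itself had no replicate 1 summit within 1 kb. The lists give no peak widths, so whether the summits of such a pair lie in 1 bound region is not known. The median score of the replicate 2 summits within 2 kb of these high summits was 51.1. After those at Txnip, a regulator of redox state, and the G protein gene Gna12, the highest were inside Dlc1, which encodes a GTPase-activating protein (score 148.8, 1241 bp from a replicate 2 summit of score 12.2), inside the polo-like kinase gene Plk2 (141.2, 1599 bp from one of 3.64) and 4263 bp outside Frmd8 (140.7, 1314 bp from one of 98.8).

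A summit 2501 bp outside Dusp1, a phosphatase of MAP kinases, scored 137.6, and the replicate 2 summit 1401 bp away scored 44.2. Near Btg2, an inhibitor of proliferation, a summit 15214 bp from the gene scored 109.1, 1136 bp from a replicate 2 summit of 5.10. The summit 694 bp outside the ubiquitin gene Ubb scored 123.2, with a replicate 2 summit of 92.7 at 1055 bp. Inside Efna1, which encodes an ephrin ligand of vessels, a summit scored 128.0, and replicate 2 had 77.2 at a distance of 1296 bp. The remaining ones of the 15 highest were inside Frmd4b (105.9), Plekhh2 (105.5), the tropomyosin gene Tpm4 (102.0), the phosphatase gene Ptpn12 (101.2), the caveolin gene Cav2 (96.2) and the RNA-binding protein gene Hnrnpl (96.2). In each of the 15 cases the nearest replicate 2 summit lay 1021 to 1627 bp away.

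**Figure D2:**
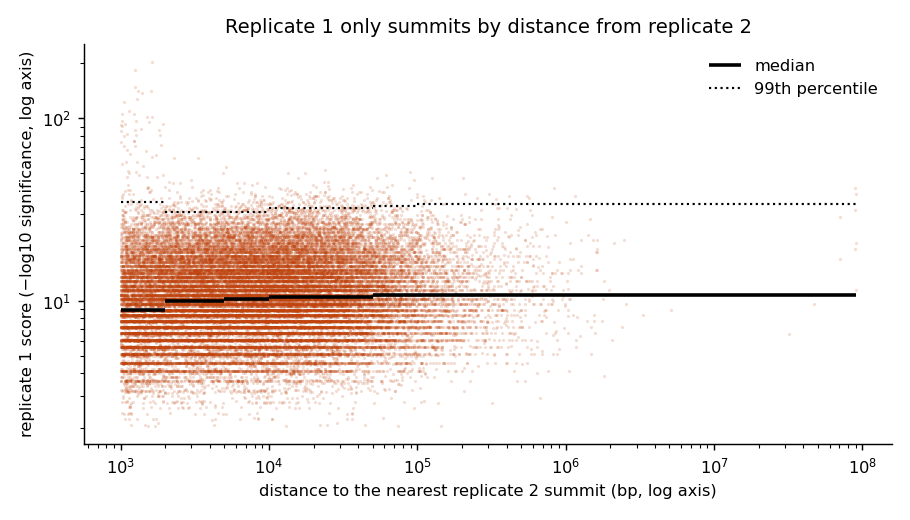
Each point is a replicate 1 only summit, by its distance to the nearest replicate 2 summit (bp, log axis) and its score (log axis). Thick bars are medians and dotted bars 99th percentiles of 6 distance classes: the medians lie between 8.94 and 10.8, while scores over 61 occur in the class of 1 to 2 kb alone.

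Away from replicate 2 summits the scores were alike over a wide range of distance. The median distance to the nearest replicate 2 summit was 7934 bp. By distance, 15.9% lay at 1 to 2 kb, 22.1% at 2 to 5 kb, 18.1% at 5 to 10 kb, 33.8% at 10 to 50 kb, 5.87% at 50 to 100 kb and 4.20% beyond 100 kb. Median scores in these classes were 8.94, 9.90, 10.2, 10.4, 10.8 and 10.8. Beyond 10 kb the highest score was 51.8, at a summit 531 bp outside Cacul1, followed by 50.8 at a summit 5477 bp outside Itgam, which encodes an integrin subunit of myeloid cells. Beyond 100 kb the highest were a summit 153864 bp from Eya1, a developmental regulator (46.9), and one inside Tmem117 (46.9). These 4 summits were picked after their values were seen.

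Replicate 1 only summits were spread among the partnered ones and were more widely spaced than those. The nearest other replicate 1 only summit lay a median of 8811 bp away, and the nearest partnered summit 7968 bp away, against 3411 bp between neighbouring partnered summits. Another replicate 1 only summit lay within 10 kb of 53.4% of them (52.9 to 53.8%), against 71.5% of partnered summits with another partnered summit within 10 kb (71.2 to 71.9%). The rule sets part of the distance to partnered summits, since it keeps members over 1 kb from each replicate 2 summit. It sets no lower limit between members, and 11.5% had another member within 1 kb, against 24.0% of partnered summits with another partnered one. Members are also fewer than partnered summits (44924 against 62454), which by itself widens their spacing.

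Most replicate 1 only summits lay away from gene ends. Of the 44924, 4.50% were at most 1 kb from an end of a protein-coding gene (4.31 to 4.69%), against 18.6% of partnered summits (18.3 to 18.9%). Inside such genes, over 1 kb from both ends, lay 52.4%, against 44.9% of partnered summits, and 43.1% lay between genes, against 36.5%. Over 100 kb from any protein-coding gene end lay 22.0% (21.6 to 22.4%), against 17.1% of partnered summits (16.8 to 17.4%). The intervals are exact and cover counting error only. There is 1 list per replicate and its summits share a library, so no test of these differences was made.

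The distance from start sites was followed within score ranges. Start sites and strands came from the RefSeq promoter windows, which were used for all chromosomes but 18. Within 1 kb of a protein-coding start site lay 2.40% of replicate 1 only summits, against 16.6% of partnered summits. Among replicate 1 only summits the share was 4.42% at scores under 5, 2.95% from 5 to 10, 1.73% from 10 to 20 and 1.23% from 20 to 40. Among partnered summits in the same ranges it was 20.04%, 19.3%, 18.3% and 16.6%. Replicate 1 only summits at 40 and over, which numbered 109 on these chromosomes, gave 10.1% (5.15 to 17.3%), against 15.6% of partnered summits in that range.

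The rule itself keeps members away from many promoters. A replicate 2 summit lay within 1 kb of 51.5% of the 21238 distinct start sites, where a member can hardly lie. Among the 10301 start sites with no replicate 2 summit within 1 kb, 915 had a replicate 1 only summit within 1 kb (8.88%, exact interval 8.34 to 9.45%) and 387 had one within 100 bp (3.76%, 3.40 to 4.14%). The members within 1 kb of a start site had a median score of 8.34, below the 10.2 of all members.

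**Figure D3:**
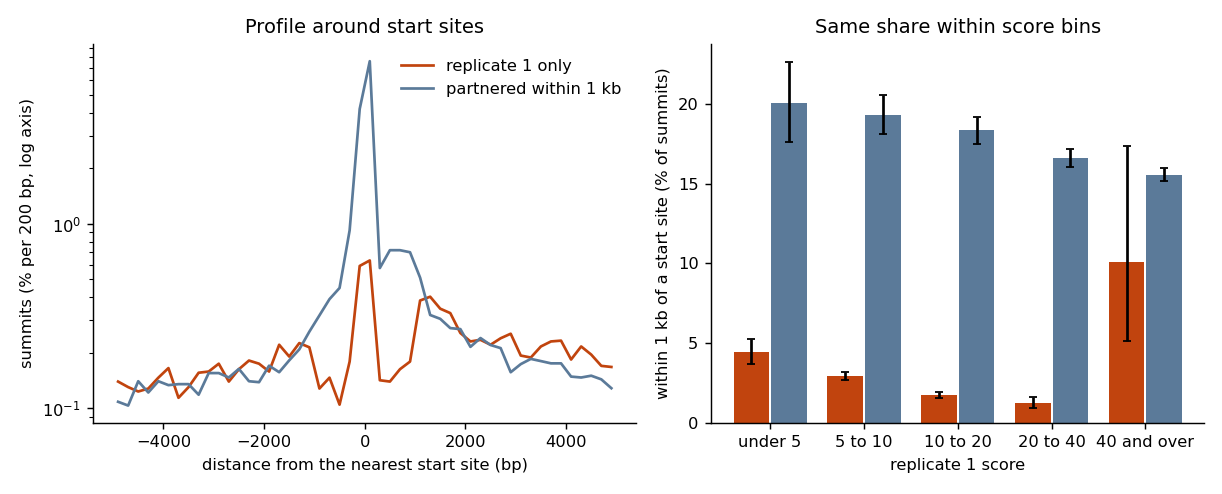
Left, replicate 1 only and partnered summits by signed distance from the nearest protein-coding start site (bp, downstream positive), as a percentage of each set per 200 bp (log axis). Right, share within 1 kb of a start site in 5 score ranges for replicate 1 only (left bars) and partnered summits (right bars), with exact 95% intervals. Replicate 1 only summits peak at 0.632% per 200 bp after the start site and have a shoulder of 0.402% at 1200 to 1400 bp. The rule, which keeps them over 1 kb from replicate 2 summits, sets part of this profile.

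Around start sites, replicate 1 only summits reached 0.590% per 200 bp just before the site and 0.632% just after it, against 4.19% and 7.60% of partnered summits. Downstream, from 1200 to 1400 bp, they held 0.402%, against 0.320% of partnered summits. Between these places, at 200 to 400 bp after the start, they fell to 0.142%, against 0.575% of partnered summits. The rule sets part of this dip and rise, since it keeps members over 1 kb from each replicate 2 summit. Their share went from 0.179% at 800 to 1000 bp to 0.383% at 1000 to 1200 bp.

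Promoters with a replicate 1 only summit held the forkhead core more often than protein-coding promoters at large. The core searched was TGTTTA or its reverse complement TAAACA, and the longer motif TGTTTAC contains it. Of 421 protein-coding windows of 300 bases with a replicate 1 only summit, 67 held the core (15.9%, exact interval 12.6 to 19.8%). It was present in 9.34% of the 5662 windows with a partnered summit (8.60 to 10.1%) and in 11.5% of all 21230 protein-coding windows. For long noncoding RNA genes the shares were 30.1% of 236 windows with a replicate 1 only summit (24.3 to 36.4%), 19.5% of 995 with a partnered summit and 17.0% of all 11587 windows. TGTTTAC or its reverse complement was in 5.94% of the protein-coding windows with a replicate 1 only summit, 3.44% of those with a partnered summit and 3.00% of all.

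Base composition differed between these sets of windows, and within each set the core was rarer at higher GC content. The median GC content was 58.7% in protein-coding windows with a replicate 1 only summit, 62.7% in those with a partnered summit and 53.3% in those without any replicate 1 summit. In windows under 50% GC the core was in 37.2% with a replicate 1 only summit, 32.2% with a partnered summit and 22.4% with neither. From 50 to 60% GC it was in 16.8% with a replicate 1 only summit, 13.7% with a partnered summit and 8.79% with neither, and at 60% GC and over in 6.38%, 4.99% and 2.79% of these sets. Within each GC range the intervals of windows with a replicate 1 only and with a partnered summit overlapped, and windows with neither had the lowest share. In long noncoding RNA windows under 50% GC the core was in 40% with a replicate 1 only summit (30.6 to 50.02%), against 51.1% with a partnered summit (44.4 to 57.8%). From 50 to 60% GC it was in 27.96% with a replicate 1 only summit, against 23.98% with a partnered summit, and at 60% GC and over in 7.89%, against 3.64%, with overlapping intervals in each range.

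**Figure D4:**
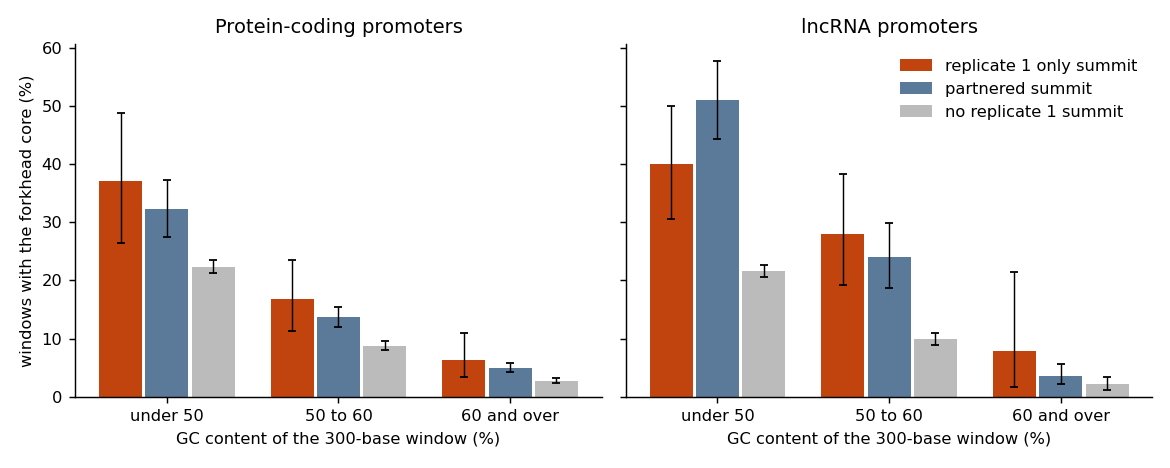
Share of 300-base promoter windows with TGTTTA or TAAACA by GC content, for windows with a replicate 1 only summit, with a partnered summit and with no replicate 1 summit. Bars carry exact 95% intervals: in protein-coding windows under 50% GC the shares are 37.2%, 32.2% and 22.4%.

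The motif lay close to the summit in both kinds of promoter. In the 51 windows of either gene type with TGTTTAC and a replicate 1 only summit, the median distance from the summit to the motif centre was 23 bp, and 27 (52.9%) had it within 25 bp. In the 268 such windows with a partnered summit the median was 25 bp, and 50.4% had it within 25 bp.

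Genes near a replicate 1 only summit mostly also had a partnered one. Of 21887 protein-coding genes, 6380 (29.1%) had a replicate 1 only summit within 5 kb of either end. Among these, 77.0% also had a partnered summit there, against 54.0% of genes without a replicate 1 only summit. For 1448 genes (6.62%) replicate 1 only summits were the only summits of either replicate within 5 kb of an end, and the highest such summit per gene had a median score of 10.2. Neither replicate had a summit there at 7113 genes.

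Of these genes, 1065 also had no other summit inside them. The highest summit of this kind lay 1186 bp outside Mogat2, an enzyme of fat absorption, with a score of 40.8, and 31339 bp from the nearest replicate 2 summit. Next came a summit inside Cxcr6, a chemokine receptor of T cells (38.7), one 376 bp outside Ptgfr, the prostaglandin F receptor (34.8), and one inside the synaptic vesicle gene Sv2b (34.8). Cstdc2, Fam209 and the potassium channel gene Kcnk7 each had 33.96, and the muscle gene Myot and the organic anion transporter gene Slc22a8 each had 33.1. Gdpd4 had 32.2.

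Replicate 1 only summits were numerous at some long genes. By nearest gene end within 100 kb, Qk, which encodes an RNA-binding protein of vessels and glia, had 36, against 17 partnered summits assigned to it. Inside the gene lay 29, or 25.7 per 100 kb, where the median over the 2429 protein-coding genes of 100 kb and over was 2.21. The 36 were low, with a highest score of 16.7 and a median of 6.33. Maml3, a coactivator of Notch signalling, had 30, against 28 partnered summits, and Nfib, a transcription factor of lung maturation, had 33, against 64. Rad51b had 31 (45 partnered), the spectrin gene Sptbn1 29 (32), the tyrosine kinase gene Fyn 29 (30), the semaphorin gene Sema6a 29 (45), Filip1l 28 (29), Zfp608 26 (47) and Cradd 26 (26). The highest score over these 10 genes was 33.98, at Sptbn1.

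Some regions held replicate 1 only summits and no summit of replicate 2. Of 14991 bins of 100 kb with at least 1 member, 2805 had no replicate 2 summit. The fullest of these, picked after their values were seen, was an interval at chr13:83700001-83800000 (mm10) with 13 and no protein-coding gene. The next, at chr2:71500001-71600000, held 11 and the homeobox genes Dlx1 and Dlx2, which act in forebrain and craniofacial development. Bins with 9 each held Stc2, Tbx15, a T-box factor of skeleton and skin, and Spon1 with Rras2. None of these bins held a partnered summit, which the choice of bins without a replicate 2 summit nearly fixes in advance.

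At the Foxf1 locus itself the replicate 1 only summits were low. Foxf1 spans chr8:121084386-121088154 (mm10), and within 100 kb of it 15 of 39 replicate 1 summits lacked a replicate 2 summit within 1 kb (38.5%), close to the 41.8% of the whole list. Their scores were between 4.69 and 20.7, where the partnered summits of the region had a median of 30.9. The highest, at position 121170762, lay 82608 bp to the right of Foxf1. Fendrr, the long noncoding RNA gene beside Foxf1, held 3, with scores of 11.0, 6.68 and 10.2. The nearest to Foxf1 lay 4213 bp to its right with 8.34, and none lay inside it.

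The gene lists, which were drawn up with earlier results of these data known, were read against the 29.1% of all protein-coding genes with a replicate 1 only summit within 5 kb of an end. The share was above that value in 14 of 15 lists, but the exact intervals of the epithelial, mesothelial, hedgehog, VEGF, cell cycle, neuronal and photoreceptor lists contained it. It was 18 of 24 smooth muscle and pericyte genes (75%, exact interval 53.3 to 90.2%), 25 of 34 endothelial genes (73.5%, 55.6 to 87.1%), 14 of 20 FGF and PDGF genes (70.0%) and 17 of 26 BMP and TGF-beta genes (65.4%). Fibroblast and matrix genes had 18 of 30 (60%), Notch genes 9 of 16 (56.2%), mesothelial genes 6 of 11 (54.5%), WNT genes 14 of 26 (53.8%) and hedgehog genes 7 of 14 (50%). Epithelial genes had 13 of 28 (46.4%, 27.5 to 66.1%), VEGF and angiopoietin genes 7 of 16 (43.8%, 19.8 to 70.1%) and cell cycle genes 12 of 29 (41.4%, 23.5 to 61.1%). Lower shares were found for neuronal genes, with 10 of 28 (35.7%), for genes of photoreceptors, pancreas and sperm, with 8 of 26 (30.8%, 14.3 to 51.8%), and for blood and immune genes, with 7 of 25 (28.0%). Partnered summits were also frequent at most of these lists, for instance at 97.1% of endothelial, 87.5% of smooth muscle and pericyte and 100% of cell cycle genes, against 60.7% of all protein-coding genes. Genes with a replicate 1 only summit had a partnered one more often (77.0%) than genes without (54.0%). The 29.1% is therefore not taken over a like set of genes for most lists.

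**Figure D5:**
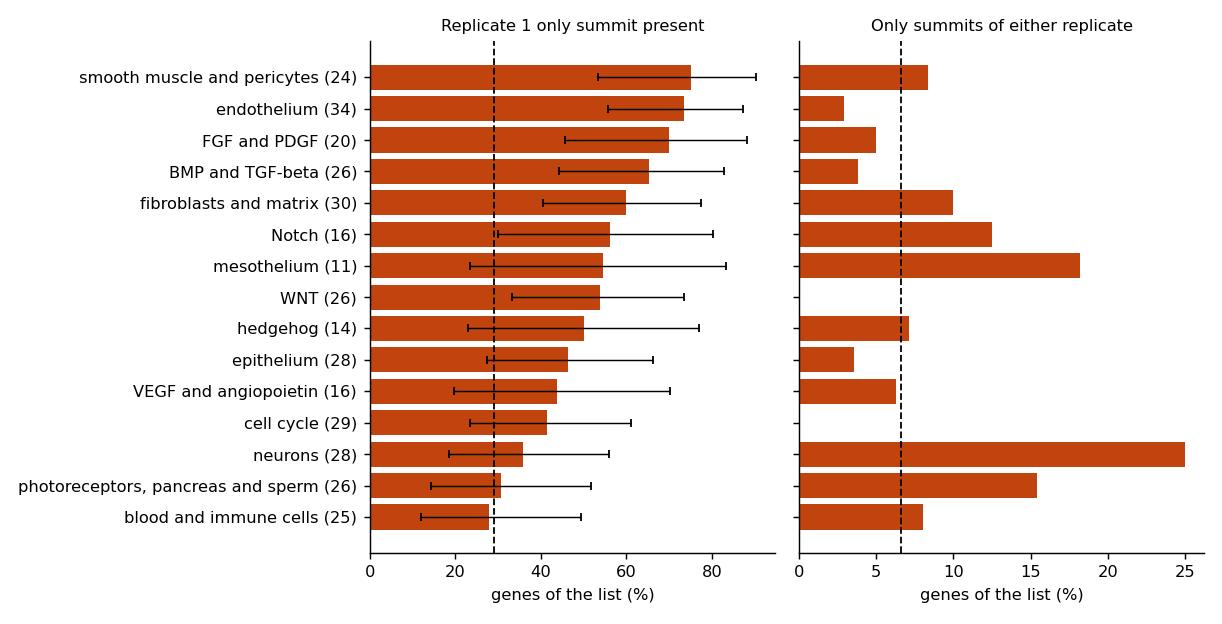
Left, percentage of the genes of each list (number of genes in parentheses) with a replicate 1 only summit within 5 kb of an end, with exact 95% intervals, and right, percentage whose only summits of either replicate there are replicate 1 only. Dashed lines are the values over all protein-coding genes, 29.1% and 6.62%. Neuronal genes have the longest bar on the right, 25%.

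Within the lists of cell types, the highest replicate 1 only summits stood near genes of smooth muscle and pericytes. Pdgfrb, the receptor that marks pericytes, had one of score 38.5, and Tagln, an actin-binding protein of smooth muscle, one of 26.8. Among endothelial genes, Sox18, a vascular transcription factor, and Vwf, a clotting factor, each had 19.1. The highest of the fibroblast list were the proteoglycan gene Dcn with 15.5 and, at 13.4 each, the collagen gene Col6a3 and the lipid droplet gene Plin2. Napsa (26.3) and Hopx (24.6), of alveolar type 2 and type 1 cells, led the epithelial list. Cdk6, a kinase of the cell cycle, had 48.9 at the promoter of Gm36470 named above, and E2f3, a factor of the same pathway, had 19.9.

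In the signalling lists, Tcf7l2, a WNT effector, had a replicate 1 only summit of 35.9, and the receptor gene Fzd8 one of 23.8. The Notch ligand gene Dll1 had 25.4. Fgf1 had 26.8 in the FGF and PDGF list, next to Pdgfrb. Bmpr1a and Bmpr2, receptors of BMP ligands, had 23.8 and 21.4. Nrp1, a coreceptor of VEGF, had 21.4 and the receptor gene Tie1 15.5. The hedgehog effector gene Gli2 had 15.5 and the ligand gene Dhh 13.2. Cd8a (15.5) and Lyz2 (12.1) were highest among blood and immune genes, and Sag (23.0) and Spata18 (17.7) in the list of photoreceptors, pancreas and sperm.

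At 7 of 28 neuronal genes, replicate 1 only summits were the only summits of either replicate within 5 kb of an end (25%, exact interval 10.7 to 44.9%), beside 6.62% of all protein-coding genes. Partnered summits were at 6 of the 28 (21.4%), against 60.7% of all protein-coding genes. Only a gene without partnered and replicate 2 summits there can have replicate 1 only summits alone. The 25% and the 6.62% therefore do not compare like sets of genes. The 7 genes were the glutamate and GABA transporter genes Slc17a7 (10.2) and Slc32a1 (7.76), the kinase gene Camk2a (11.2), the microtubule genes Dcx (6.64) and Map2 (11.7), the neurofilament gene Nefm (10.2) and the glutamate receptor gene Grin1 (8.19). Map2 had other summits deeper inside the gene. The share was the highest of the 15 lists with these settings, and 3 of the alternatives put another list above it. The highest of these 7 scores was 11.7. The highest neuronal member, at Grin2b, scored 17.4, and Grin2b also had a partnered summit.

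In the other lists, at most 4 genes each had replicate 1 only summits as their only summits within 5 kb of an end. With the neuronal list counted, the share was above the 6.62% of all protein-coding genes in 8 of 15 lists. It was 18.2% of mesothelial, 12.5% of Notch and 10% of fibroblast and matrix genes. Outside the neuronal list the exact intervals contained 6.62%, for instance 2.28 to 51.8% for mesothelial genes. They were Mmrn2 in the endothelial list (12.1), Dcn (15.5), Prrx1 (5.58) and the hedgehog effector Gli1 (12.7) in the fibroblast list, the contractile gene Actg2 (2.12) and the intermediate filament gene Des (15.5) in the smooth muscle list, and the alveolar type 2 gene Lamp3 (9.54) in the epithelial list. The mesothelial list had Gpm6a (12.7) and the WNT agonist Rspo1 (17.7). The blood list had Lyz2 (12.1). Among pathway genes they were the VEGF family ligand Pgf (7.65), the Notch target Heyl (16.9) and effector Rbpj (8.94), the BMP antagonist Grem1 (12.1) and Fgf2 (10.2). Rbpj and Fgf2 had other summits deeper inside the gene. WNT and cell cycle genes had none. The list of photoreceptors, pancreas and sperm had 4 of 26 (15.4%), among them Cela1 (12.1), Cel (14.6) and Prm2 (12.1).

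On the chromosomes, the share of replicate 1 summits without a partner was even, apart from the Y. It lay between 39.4% (X) and 43.4% (18) over the autosomes and the X. On the Y, 13 of 14 replicate 1 summits lacked a replicate 2 summit within 1 kb (92.9%, exact interval 66.1 to 99.8%), and replicate 2 had 1 summit there. Their median score was 19.1, with 41.2 and 19.1 inside the histone demethylase gene Uty, 38.5 outside Uba1y, 31.3 inside the RNA helicase gene Ddx3y, 20.7 inside Kdm5d and 11.4 inside the translation factor gene Eif2s3y. The lowest was 6.55. The sexes of the pooled embryos are not given in the labels.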

How the data were processed

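Lungs in 2 pools of 3 were profiled by FOXF1 chromatin immunoprecipitation and sequencing, after being fixed in 1% formaldehyde, with 10 µg of chromatin and 7 µg of antibody, per the labels. The authors called peaks with MACS2 on mm10, per the submitters' processing notes. The deposited files list 1-base summits with a −log10 score, without saying whether of a p or a q value. No source used here gives the aligner, the options or the depth.

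Distances were computed with Python 3.11.15, pandas 2.3.3 and numpy 2.4.6, and exact (Clopper-Pearson) 95% intervals with scipy 1.17.1. The distance code was tested on simulated data. The 10 mitochondrial summits of replicate 1 were left out. Genes came from the RefSeq table of GRCm38.p6 (21887 protein-coding), and start sites and promoter sequences from RefSeq windows of 250 bases before to 50 after each start. No genome sequence was used, so motifs were searched in promoters alone.

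The members and lists were chosen with earlier results of these data known. Gene families, GC ranges, bins and the counts of start sites were added after the data were seen. Named genes followed a rule: the 15 highest members, the 10 genes with most members, the 10 highest genes with members alone, Foxf1 and Fendrr, and in each list the 2 highest genes and those with members alone, of which some are not reported here. Alternatives changed the partner distance, the score minimum, the distance to a gene end and the motif.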

Additional observations from a re-analysis of the deposited data

Results flagged for a closer look

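Summits on the mitochondrial genome lie outside the nuclear chromosomes used for the comparisons, and replicate 1 had 10 of them. They are flagged because no comparison used them. Of these, 5 had no replicate 2 summit within 1 kb. Replicate 2 had 6 mitochondrial summits. The highest score was 43.4 in replicate 1 and 13.97 in replicate 2. No input list was analysed here.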

How the results depend on the processing

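Values for other settings follow in a fixed order: median score, share within 1 kb of a gene end, share over 100 kb from one, share with another member within 10 kb, and share of protein-coding genes with a member. With a partner distance of 500 bp they were 9.90, 5.90%, 21.2%, 57.7% and 34.3%. With 2 kb the last 3 were 23.0%, 47.2% and 23.1%. With 5 kb, 27851 summits were left and the last 3 were 24.9%, 41.1% and 14.5%. With scores of at least 5 in both lists the median was 10.8, the spacing share 52.0% and the gene share 28.3%. With scores of at least 10 in replicate 1, 22826 summits were left, with 14.6, 3.70%, 23.3%, 32.6% and 15.1%, and the forkhead core was in 23.2% of their protein-coding promoters. Within 5 kb in place of 1 kb of a gene end lay 17.0%. Within 1 kb and 20 kb of an end, 8.94% and 55.7% of genes had a member. The longer motif was in 5.94% of promoters. The causes of these shifts were not tested, apart from fewer summits or wider windows by construction. The number of gene lists above the background stayed between 12 and 14 of 15 over these alternatives. Neuronal genes with members alone made up 10.7% to 25%, above the share of all genes in each setting. They were not the highest list within 1 kb of an end (smooth muscle and pericytes 20.8%, blood 16%, neurons 10.7%), within 20 kb (mesothelium 27.3%, neurons 14.3%) or at scores of at least 10 in replicate 1 (mesothelium 18.2%, photoreceptors 15.4%, neurons 14.3%). With a partner distance of 5 kb, 26.5% of endothelial and 32.1% of neuronal genes had a member, beside 14.5% of all protein-coding genes. The rule sets part of this order, since the wider distance leaves out more summits at genes with replicate 2 summits nearby. In the main setting, partnered summits were at 97.1% of endothelial and 21.4% of neuronal genes. Of 224 values of the gene lists and their background under alternatives, 162 stayed within the intervals or counts of the main setting and 62 moved. Such intervals are wide for short lists, for instance 23.4 to 83.3% for the 11 mesothelial genes, so staying within them says little. Leaving out either replicate gives no value, since the choice of members needs both lists. No paired analysis was possible because each replicate is 1 list and no result comes from a test. Read depth is unknown, so no limit of detection can be given for replicate 2.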

Other observations

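Gene families were picked by symbol after the data were seen. Olfactory receptor genes rarely had a replicate 1 only summit within 5 kb of an end, with 19 of 1110 (1.71%), and 24 had a partnered one. Of 353 vomeronasal receptor genes 1 had a replicate 1 only summit. Genes of solute carriers had one more often, with 140 of 375 (37.3%), beside 29.1% of all protein-coding genes. At 46 solute carrier genes (12.3%) there was no other summit within that distance, beside 6.62% of all protein-coding genes. Ribosomal protein genes stood the other way: 13 of 77 had a replicate 1 only summit (16.9%) and 74 had a partnered one. None had replicate 1 only summits alone, which the 74 genes with a partnered summit nearly fix in advance. Of 397 Zfp genes, 79 (19.9%) had a replicate 1 only summit and 325 a partnered one.

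Other gene types were counted within 1 kb of an end, where 8.94% of protein-coding genes had a replicate 1 only summit and 49.8% a partnered one. Replicate 1 only summits lay at 1479 of 12727 long noncoding RNA genes (11.6%), against 24.2% with a partnered summit. Of 9944 pseudogenes 2.97% had a replicate 1 only summit and 3.26% a partnered one. Of 408 transfer RNA genes 15.4% had a replicate 1 only summit and 35.8% a partnered one, and of 1228 microRNA genes 6.19% and 13.3% had these. The microRNA hairpin with the highest replicate 1 only summit within 1 kb was Mir1967, with a score of 45.01 and no partnered summit. Mir30c-2 had a summit of 19.9 inside its hairpin.

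Summits found in replicate 2 alone lay near start sites more often than those found in replicate 1 alone. The 1517 replicate 2 summits with no replicate 1 summit within 1 kb had a median score of 13.2, where the whole replicate 2 list had 17.6. Of those on the chromosomes with start sites, 15.5% lay within 1 kb of one, against the 2.40% of replicate 1 only summits. Each set leaves out summits near the other list, and the lists differ in length (107378 in replicate 1, 61172 in replicate 2), so the shares are a description.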
